A study of Mus musculus with 18 samples.

Results

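The microRNAs (miRNAs) described here are miR-126-3p and miR-126-5p, the 2 arms of the miR-126 hairpin, with miR-221-3p and miR-222-3p, which come from neighbouring hairpins. They were chosen by name, as rows of stem miR-126 or miR-126a together with mmu-miR-221-3p and mmu-miR-222-3p, a rule that uses no measured value, although the set was put together with earlier results of these data known. The rule found 4 of the 758 mature miRNAs listed. The listing spells miR-126a as miR-126 and had 0 rows of stem miR-126b. The small RNA came from the livers of C57BL/6J mice (a standard inbred strain) of wild-type genotype, sequenced as 18 libraries in 6 groups of 3. The groups LF and HF are read here as a low-fat and a high-fat diet alone, LF+CR and HF+CR as the same diets with calorie restriction, and LF+Ex and HF+Ex as the diets with exercise. Every group began its regimen at 5 weeks of age and was sampled at 62 weeks, and all share the strain and the wild-type genotype. The labels give neither the diets' composition nor the kind of exercise, nor do they tell whether a group's 3 libraries stem from different mice. The p-values therefore measure only the spread between these libraries, which may be technical.

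miRNAs are short RNAs that guide Argonaute proteins to messenger RNAs through a seed at their 5′ end and lower the output of those messengers. A hairpin precursor is cut into a duplex whose strands are the 5p and 3p arms, and either arm can be loaded. miR-126 lies within Egfl7, a gene expressed in endothelial cells, and is a standard marker of endothelium, where miR-126-3p is known to target the signalling inhibitors Spred1 and Pik3r2 and so to favour the response to VEGF. miR-221 and miR-222 are abundant in endothelial cells, where they are known to target the receptor Kit, but they are also made by many other cells, proliferating hepatocytes among them, and are known to target the cell cycle inhibitor Cdkn1b. The liver's endothelium includes the sinusoidal cells that line its capillaries.

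The sequences are shown because the members divide by seed. Capitals mark the seed, bases 2 to 8 from the 5′ end. Mature sequences of 3 of the 4 members were matched in RefSeq (GRCm38.p6), and miR-126a-5p was not.
miR-126a-3p: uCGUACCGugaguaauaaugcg
miR-221-3p: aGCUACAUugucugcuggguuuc
miR-222-3p: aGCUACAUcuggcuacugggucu
miR-221-3p and miR-222-3p have the same seed and are identical over their first 8 bases, and at 11 of the 23 positions when aligned from the 5′ end. Among the 1738 mature mouse miRNAs of that RefSeq table, miR-1928 also carries the seed GCUACAU, and 0 others share CGUACCG with miR-126a-3p. In the Mir126a hairpin the capitals mark the 3p arm.
Mir126a: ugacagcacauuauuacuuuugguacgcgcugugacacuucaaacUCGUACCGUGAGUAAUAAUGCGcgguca
On GRCm38 the mature miR-126a-3p occupies chr2:26591402-26591423 on the plus strand. Its hairpin lies inside Egfl7 (chr2:26580014-26593120, plus strand). Of the 19 annotated Egfl7 transcripts 9 span the hairpin, which is intronic in 8 of them and falls in an exon of 1 retained-intron transcript. The Mir126b hairpin is annotated on the opposite strand, and all 58 of its bases lie within Mir126a. The mature miR-221-3p is at chrX:19146307-19146329 and miR-222-3p at chrX:19146901-19146923, both on the minus strand. Their hairpins are 504 bases apart and overlap no other annotated gene.

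Levels are in RPM, reads scaled to the library total, the unit deposited. Depth, as megareads (M) on listed miRNAs read from the RPM steps, ranged from 2.38 M in library HF+Ex 1 to 10.5 M in LF+Ex 2. The 3 shallowest libraries, HF+Ex 1, HF+CR 3 and HF+CR 1, were all on the HF diet. Leaving them out leaves HF+CR 2 as the only library of its group. The tissue label was met by the hepatocyte list, whose 7 miRNAs, among them miR-122-5p, summed to between 317268 and 439007 RPM. LF 1 and HF+CR 3 stood apart by high epithelial and biliary miRNAs, at up to 8424 RPM, and LF+CR 1 and HF+CR 1 by pancreatic miRNAs at 348 and 138 RPM, so results that rest on them are also given without them. In whole tissue, fewer endothelial cells and less miRNA per cell cannot be told apart.

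All 4 members were measured in every library with many reads. miR-126-3p averaged 9017 RPM over the 18 libraries, which is 0.931% of the listed RPM and place 24 among the miRNAs. miR-126-5p averaged 7728 RPM and held place 25. miR-221-3p averaged 2032 RPM at place 46, and miR-222-3p averaged 261 RPM at place 110. The fewest reads behind any value were 27648 for miR-126-3p, 20295 for miR-126-5p, 5789 for miR-221-3p and 905 for miR-222-3p. Counting error was therefore small beside the spread over all 18 libraries. It was not small beside the spread within the tightest groups, such as HF+CR for miR-126-3p (SD 50.7 RPM) and LF for miR-222-3p (SD 5.66 RPM). The labels describe no molecular identifiers, so reads are not counted as independent molecules.

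miR-126-3p, the strand of the hairpin with the best-known targets, stood at 9069, 6946 and 8108 RPM in LF libraries 1 to 3. It was 6329, 6357 and 9597 RPM in LF+CR and 8463, 7161 and 9306 RPM in LF+Ex. In HF it was 10077, 9170 and 9552 RPM, in HF+CR 9149, 9158 and 9241 RPM, and in HF+Ex 12333, 10673 and 11618 RPM. All 9 HF-diet libraries lay at 9149 RPM or above, while the 9 LF-diet libraries reached from 6329 to 9597 RPM, with LF+CR 3 and LF+Ex 3 in the range of the HF-diet libraries. The group means ran in order from LF+CR (7428 ± 1879 RPM, SD, n = 3) through LF (8041 ± 1063), LF+Ex (8310 ± 1081), HF+CR (9183 ± 50.7) and HF (9600 ± 455) to HF+Ex (11542 ± 833). In that order only the last neighbours, HF and HF+Ex, had ranges that did not overlap.

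miR-126-5p, the partner strand, was at 10264, 8502 and 5333 RPM in LF, so that 1 group held both the highest and the lowest library of all 18. It was 6050, 5643 and 7744 RPM in LF+CR and 7994, 8733 and 8377 RPM in LF+Ex. The HF diet groups had 8346, 7459 and 8213 RPM in HF, 6531, 7446 and 6783 RPM in HF+CR, and 8479, 8422 and 8784 RPM in HF+Ex. The order of the group means differed from that of the 3p arm, with both CR groups at the bottom: LF+CR at 6479 ± 1114 RPM, HF+CR at 6920 ± 473, HF at 8006 ± 479, LF at 8033 ± 2499, LF+Ex at 8368 ± 370 and HF+Ex at 8562 ± 194 (SD, n = 3). Among neighbours in this order only HF+CR and HF had ranges that did not overlap.

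miR-221-3p, the more abundant of the pair with a shared seed, was at 1921, 1977 and 2161 RPM in LF. It was 1552, 1757 and 1845 RPM in LF+CR and 1695, 1450 and 1943 RPM in LF+Ex. On the HF diet it was 1981, 2169 and 2449 RPM in HF, 2619, 2014 and 1935 RPM in HF+CR, and 3104, 2097 and 1915 RPM in HF+Ex. HF+Ex 1, the shallowest library, was the highest of the 18. The means ran from LF+Ex (1696 ± 246 RPM, SD, n = 3) and LF+CR (1718 ± 150) through LF (2020 ± 125.5), HF+CR (2189 ± 374) and HF (2200 ± 235) to HF+Ex (2372 ± 640), and only LF+CR and LF were neighbours without overlap.

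miR-222-3p, its neighbour on the X chromosome, was at 277, 274 and 285 RPM in LF, the tightest of its groups. It was 189, 214 and 213 RPM in LF+CR and 213, 158 and 228 RPM in LF+Ex. The HF diet groups had 277, 286 and 321 RPM in HF, 329, 206 and 302 RPM in HF+CR, and 486, 229 and 209 RPM in HF+Ex. The library HF+Ex 1 was again the highest, and the other HF+Ex libraries lay below all 3 HF libraries. The order of the means was that of miR-221-3p, from 199.5 ± 36.9 RPM in LF+Ex and 205 ± 14.2 in LF+CR through 279 ± 5.66 in LF, 279 ± 65.0 in HF+CR and 295 ± 23.3 in HF to 308 ± 154 in HF+Ex (SD, n = 3). Here too LF+CR and LF were the only neighbours without overlap.

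**Figure D1:**
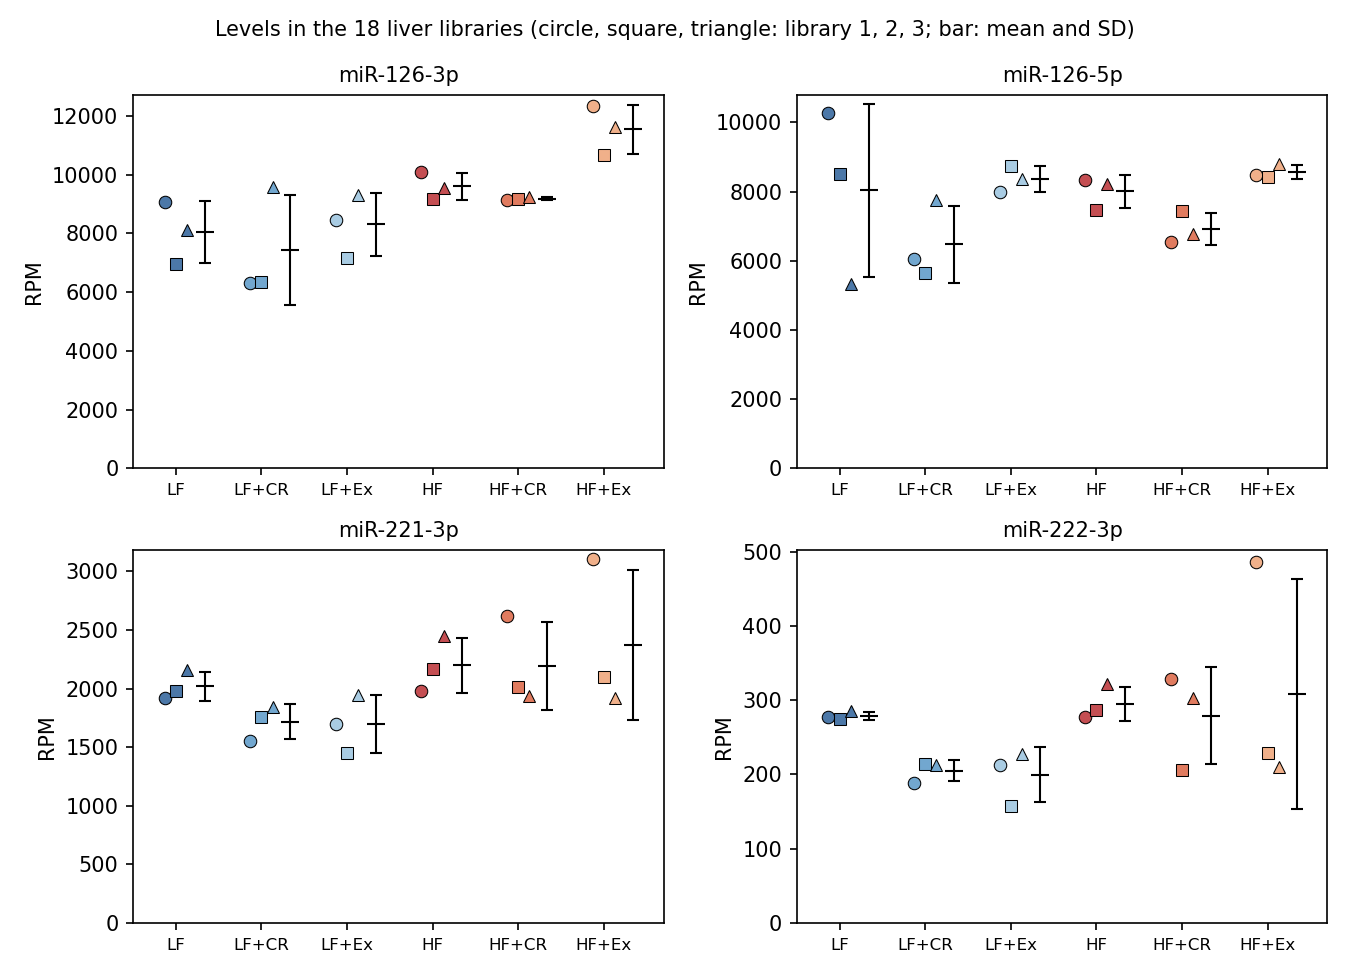
Level of each miRNA in RPM (vertical axes from 0) in the 3 libraries of each of the 6 groups (points) with the group mean and SD (bars). The HF-diet points of miR-126-3p all sit at 9149 RPM or above, the LF group spans 5333 to 10264 RPM for miR-126-5p, and HF+Ex 1 (circle) is the top point of miR-221-3p at 3104 RPM and of miR-222-3p at 486 RPM.

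Across all libraries miR-126-3p varied with a coefficient of variation of 18.2%, miR-126-5p with 16.2%, miR-221-3p with 19.1% and miR-222-3p with 28.4%. The median was 24.5% over the 155 miRNAs averaging at least 100 RPM. The highest library exceeded the lowest by 1.95-fold for miR-126-3p, 1.92-fold for miR-126-5p, 2.14-fold for miR-221-3p and 3.08-fold for miR-222-3p. The first 3 thus varied less than the median abundant miRNA, and miR-222-3p more.

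The minor arms of the miR-221 and miR-222 hairpins were low. miR-221-5p lay between 46.1 and 65.3 RPM in the 18 libraries, with group means from 49.4 ± 1.30 RPM in LF+CR to 60.3 ± 7.26 RPM in LF (SD, n = 3). Its LF+CR range lay below its LF range, a separation that 28.8% of the 351 miRNAs tested showed in one direction or the other. miR-222-5p lay between 1.49 and 6.68 RPM, on 7 to 42 reads, and did not reach the level needed for testing, which was 5 RPM in at least 3 libraries.

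The question of what the HF diet does was addressed by comparing each HF group with the LF group of the same regimen, and by the average of these 3 differences. Differences were tested with limma on log2(RPM + 1) in all 18 libraries, with Benjamini-Hochberg adjustment over the 351 miRNAs tested, and the threshold for a call was an adjusted p of 0.05. Averaged over the regimens, miR-126-3p was higher on the HF diet by 0.36 on the log2 scale (SE 0.09, 95% interval 0.17 to 0.55), a 1.28-fold difference with an adjusted p of 0.0170 in limma. It was the 1 member called of 4, where 65 of all 351 miRNAs (18.5%) were called. The comparison moved the table as a whole: the median miRNA stood at 0.19 and 71.5% of miRNAs lay above 0, against a median of 0.32 and 4 of 4 above 0 for the members. When RPM was rescaled by median-of-ratios size factors, which brought the median miRNA to -0.01, miR-126-3p stood at 0.15 and was no longer called (adjusted p = 0.259). The call was also lost without the pancreatic-high libraries LF+CR 1 and HF+CR 1 (0.33, adjusted p = 0.0605) and without the 3 shallowest libraries (0.34, adjusted p = 0.0882), and it held in 27 of 30 alternatives, every omission of a single library among them.

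The other members did not pass in this average. miR-221-3p, which targets Kit and Cdkn1b, differed by 0.31 (SE 0.11, adjusted p = 0.0582 in limma), and miR-222-3p, its partner, by 0.34 (SE 0.15, adjusted p = 0.110). miR-126-5p differed by 0.06 (SE 0.11, 95% interval -0.16 to 0.29, adjusted p = 0.710). A value of 0.20 remained for miR-221-3p without the 3 shallowest libraries, and rescaling took it to 0.10. It passed with a filter of 50 RPM (adjusted p = 0.0471), without LF+Ex 3 (0.0486), without HF+CR 2 (0.0456) and without HF+Ex 3 (0.0412).

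Markers of other cell types were compared in the same contrast, on the RPM scale. Over all 351 miRNAs 65 (18.5%) were called there, 56 higher and 9 lower, which became 26 and 23 after rescaling. The leukocyte and Kupffer cell list, which includes the myeloid miR-223-3p and the pan-leukocyte miR-142-3p, had 6 of 8 members called higher. Its median was 0.95 on the log2 scale, beside 0.19 for all miRNAs. Its summed level ranged over 2898 to 8671 RPM in LF, 2840 to 3575 in LF+CR and 3595 to 4782 in LF+Ex, against 6698 to 8553 in HF, 4048 to 10109 in HF+CR and 5990 to 8314 in HF+Ex. The hepatocyte list had 0 of 7 called in limma, 0 of 7 reached an unadjusted p under 0.05, limma with voom weights from the recovered reads called 0, and 7 of 7 lay below 0 (median -0.09). The stellate and mural list had 1 of 7 called higher in limma, miR-214-3p, but 0 called with voom. The epithelial and biliary list had 2 of 8 called lower, miR-182-5p and miR-96-5p, and voom also called 2. Of the erythroid list 0 of 4 were called by limma or voom (1 at an unadjusted p under 0.05), and of the pancreatic and neuronal lists 0 of 2 and 0 of 4 (0 at an unadjusted p under 0.05 in both). Without LF 1 and HF+CR 3, which held the highest leukocyte sums, miR-126-3p stood at 0.39 (adjusted p = 0.0150). The part of leukocytes and of depth in the result was not tested.

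Within single regimens none of the members was called in limma. In HF against LF, 0 of 4 members passed (1 of 351 miRNAs, 0.285%), 0 had an unadjusted p under 0.05, and voom weights also called 0. miR-126-3p stood at 0.26 (SE 0.16, adjusted p = 0.518) with all 3 HF libraries above all 3 LF libraries, a separation that 19.1% of the 351 miRNAs showed in one direction or the other. The other members lay at 0.05 to 0.12. In HF+CR against LF+CR, 0 of 4 were called (37 of 351 miRNAs, 10.5%), 1 had an unadjusted p under 0.05, and voom called 0. All 4 had positive values there: 0.33 for miR-126-3p (adjusted p = 0.159), 0.11 for miR-126-5p, 0.34 for miR-221-3p and 0.42 for miR-222-3p, beside a median miRNA at 0.38. Rescaling, which brought that median to 0.05, left miR-126-3p at 0.00041, miR-221-3p at 0.0061 and miR-222-3p at 0.083 and turned miR-126-5p to -0.23. Without the 3 shallowest libraries miR-222-3p stood at 0.0054, a value for which HF+CR 2 alone stands for HF+CR. Without LF+CR 3, the highest LF+CR library for miR-126-3p, that miRNA was called at 0.53 (adjusted p = 0.0247).

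The diet was also compared under exercise. In HF+Ex against LF+Ex miR-126-3p stood at 0.48 (SE 0.16, 95% interval 0.15 to 0.81, a 1.39-fold difference), and the 3 HF+Ex libraries, from 10673 RPM, lay above the 3 LF+Ex libraries, up to 9306 RPM. Of the 351 miRNAs 114 lay above in this way and 33 lay below, 41.9% in one direction or the other. Its adjusted p was 0.0616, so 0 of 4 members were called in limma (29 of 351 miRNAs, 8.26%), although 2 had an unadjusted p under 0.05, and voom called 0. It passed with the replicate number as a block (adjusted p = 0.0459), with a filter of 50 RPM (0.0487), without LF 1 and HF+CR 3 (0.0402), and without LF+CR 3 (0.0336). Median-of-ratios scaling, which shifted the median miRNA by -0.22, took it to 0.25 (adjusted p = 0.313). miR-221-3p stood at 0.46 (adjusted p = 0.110) and miR-222-3p at 0.53 (adjusted p = 0.188). Both rest on HF+Ex 1: without it they stood at 0.25 and 0.15, and rescaling took them to 0.23 and 0.31. miR-126-5p stood at 0.03 (95% interval -0.36 to 0.43) and at -0.19 after rescaling.

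Calorie restriction was compared with the same diet alone. In LF+CR against LF, 0 of 4 members were called in limma (22 of 351 miRNAs, 6.27%), 0 had an unadjusted p under 0.05, and voom called 0. The 4 values were all below 0: -0.13 for miR-126-3p, -0.27 for miR-126-5p, -0.24 for miR-221-3p and -0.44 for miR-222-3p (adjusted p = 0.302), beside a median miRNA at -0.32. With rescaling, which moved that median to 0.02, miR-126-3p, miR-126-5p and miR-221-3p turned to 0.20, 0.06 and 0.10, and miR-222-3p stood at -0.11. Single libraries also moved the miR-126 arms: miR-126-3p was -0.33 without LF+CR 3, -0.24 without LF 2, -0.043 without LF 1, -0.033 without LF+CR 1 and -0.037 without LF+CR 2. miR-126-5p was -0.54 without LF 3 (adjusted p = 0.0537), -0.18 without LF+CR 2 and -0.069 without LF 1. All 3 LF+CR libraries lay below all 3 LF libraries for miR-221-3p and for miR-222-3p, which 28.8% of miRNAs matched in one direction or the other. The minor arm miR-221-5p stood at -0.27 (adjusted p = 0.256 in limma). In HF+CR against HF, 0 of 4 were called and 0 of all 351 (0%), the unadjusted p was under 0.05 for 0 members and 53 miRNAs and 0 called by voom. The values were -0.06, -0.21, -0.01 and -0.11 in the same order. miR-126-5p lay lower in all 3 HF+CR libraries than in any HF library. Of the 351 miRNAs 33 lay lower in this way and 18 higher, 14.5% in one direction or the other. Averaged over both diets, CR stood at -0.10 for miR-126-3p, -0.24 for miR-126-5p, -0.12 for miR-221-3p and -0.27 for miR-222-3p, with 0 of 4 called in limma and with voom (23 of 351 miRNAs, 6.55%) and 0 at an unadjusted p under 0.05. Without the 3 shallowest libraries miR-222-3p was called in that average at -0.48 (adjusted p = 0.0378), and without LF 3 miR-126-5p was called at -0.38 (adjusted p = 0.0492).

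Exercise called none of the members. In LF+Ex against LF, limma called 0 of 4 and 0 of all 351 (0%), the unadjusted p was under 0.05 for 0 members and 41 miRNAs, while voom called 0 members and 1 miRNA. miR-126-3p and miR-126-5p stood at 0.05 and 0.11, and miR-221-3p and miR-222-3p at -0.26 and -0.50 (adjusted p = 0.533 and 0.434). After rescaling the 4 stood at 0.23, 0.29, -0.08 and -0.32. The 3 LF+Ex libraries of miR-222-3p, up to 228 RPM, lay below the 3 LF libraries, from 274 RPM, as 21.4% of miRNAs did in one direction or the other. In HF+Ex against HF, limma called 0 of 4 (3 of 351 miRNAs, 0.855%), with 0 members at an unadjusted p under 0.05 and 0 with voom. Both arms of miR-126 lay higher in all 3 HF+Ex libraries than in any HF library, at 0.26 for the 3p arm (adjusted p = 0.666) and 0.10 for the 5p arm. Of the 351 miRNAs 34 lay higher in this way and 29 lower, 17.9% in one direction or the other. miR-221-3p stood at 0.08 and miR-222-3p at -0.04. Without HF+Ex 1 these became -0.13 and -0.42. Averaged over both diets, Ex stood at 0.16 for miR-126-3p, 0.10 for miR-126-5p, -0.09 for miR-221-3p and -0.27 for miR-222-3p, and limma called 0 of 4 and 0 of 351 (0%), the unadjusted p was under 0.05 for 0 members and 12 miRNAs and 0 by voom.

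**Figure D2:**
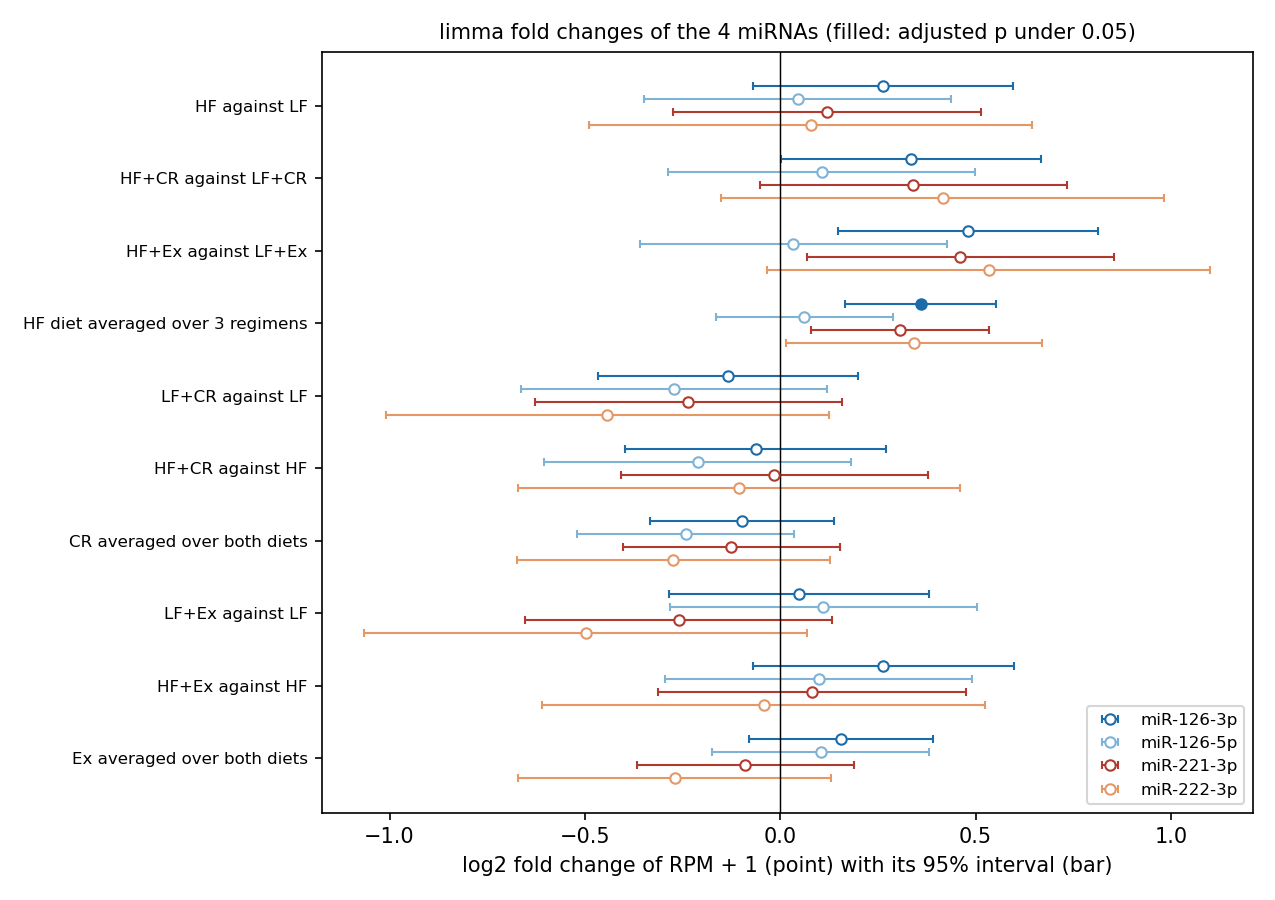
limma log2 fold changes of RPM + 1 for the 4 miRNAs (points, horizontal axis) with 95% intervals (bars) in 10 comparisons, filled where the adjusted p is under 0.05. The 1 filled point is miR-126-3p at 0.36 in the HF diet average, and the miR-126-5p intervals include 0 in each comparison drawn.

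Comparisons that share LF or HF libraries are not independent of each other. Whether the CR or Ex effect differed between diets was tested directly, and 0 of 4 members were called in either test by limma, at an unadjusted p under 0.05, or with voom (3 of 351 miRNAs, 0.855%, in each). A test for any difference among the 6 groups gave an adjusted p of 0.0509 for miR-126-3p (unadjusted p = 0.0107 in limma), 0.322 for miR-126-5p, 0.197 for miR-221-3p and 0.248 for miR-222-3p, so 0 of 4 members were called where 70 of 351 (19.9%) were. miR-126-3p was called in that test with voom weights (adjusted p = 0.0420) and with the replicate block (0.0370), and without LF 1 (0.0450), LF+CR 3 (0.0121) or HF+CR 3 (0.0453).

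The arms of miR-126 come from 1 hairpin, so their ratio within a library does not depend on how libraries are scaled. The ratio of miR-126-5p to miR-126-3p was 1.13, 1.22 and 0.658 in LF, 0.956, 0.888 and 0.807 in LF+CR, and 0.945, 1.22 and 0.900 in LF+Ex. It was 0.828, 0.813 and 0.860 in HF, 0.714, 0.813 and 0.734 in HF+CR, and 0.688, 0.789 and 0.756 in HF+Ex. The 5p arm was thus below the 3p arm in 9 of 9 HF-diet libraries, and above it in LF 1, LF 2 and LF+Ex 2. The mean ratio was 0.970 ± 0.190 over the 9 LF-diet libraries and 0.777 ± 0.0576 over the 9 HF-diet libraries (SD), and LF 3 at 0.658 was the lowest of all.

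Expressed as a share of the reads of both arms, the 5p arm made up from 39.7% in LF 3 (95% Wilson interval 39.40% to 39.95%) to 55.0% in LF 2 (54.7% to 55.3%). The intervals were at most 0.885 percentage points wide and cover counting error only, so the libraries within LF differed by far more than counting error. The log2 ratio was lower on the HF diet by a difference of -0.30 (SE 0.11, regimen by regimen, two-sided exact permutation within regimens, p = 0.0158), and over the 20 ratio tests made its adjusted p was 0.286, which does not pass. LF 3 weighs on this: without it the difference was -0.39 and the adjusted p of the exact test 0.010. For comparison, 11 of the 99 other hairpins with both arms tested had a difference at least as low as this, and so did 3 of the 20 others whose weaker arm averaged at least 100 RPM. Counted in either direction and with miR-126 included, 19 of 100 hairpins had a difference at least this large. At that level of the weaker arm it was 4 of 21.

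Single-regimen tests of the arm ratio compared 3 libraries with 3, where an exact permutation test cannot go below p = 0.10. That smallest p was reached by HF+Ex against LF+Ex (difference -0.45, SE 0.15), HF+CR against HF (-0.15, SE 0.06) and HF+Ex against HF (-0.17, SE 0.06), in each of which the first-named group lay wholly below the other. The adjusted p of the exact permutation test was 0.286 in each, which does not pass. How many other hairpins had arm ratios that separated in these comparisons was not counted. The remaining single-regimen comparisons overlapped.

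The ratio of miR-221-3p to miR-222-3p compares 2 miRNAs with 1 seed from neighbouring hairpins. It was 6.94, 7.21 and 7.58 in LF, 8.23, 8.21 and 8.68 in LF+CR, and 7.96, 9.19 and 8.53 in LF+Ex, so every treated LF-diet library lay above every LF library. On the HF diet it was 7.15, 7.58 and 7.62 in HF, 7.96, 9.80 and 6.40 in HF+CR, and 6.38, 9.16 and 9.14 in HF+Ex. The low values 6.40 and 6.38 belong to HF+CR 3 and HF+Ex 1, the shallowest libraries, and the part of depth was not tested. The log2 difference was 0.21 (SE 0.05) for LF+CR against LF and 0.24 (SE 0.07) for LF+Ex against LF, each at the smallest p of 0.10 that the exact permutation test allows. Averaged over both diets it was 0.15 for CR (exact permutation p = 0.120, adjusted p = 0.300) and 0.18 for Ex (exact permutation p = 0.0800, adjusted p = 0.286). The diet average was -0.04 (exact permutation p = 0.652). Of the 20 ratio tests 0 passed after adjustment, and 1 had an unadjusted p under 0.05. The separations of LF+CR and of LF+Ex from LF share the same LF libraries. How often the ratios of other miRNA pairs separated these groups was not counted.

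**Figure D3:**
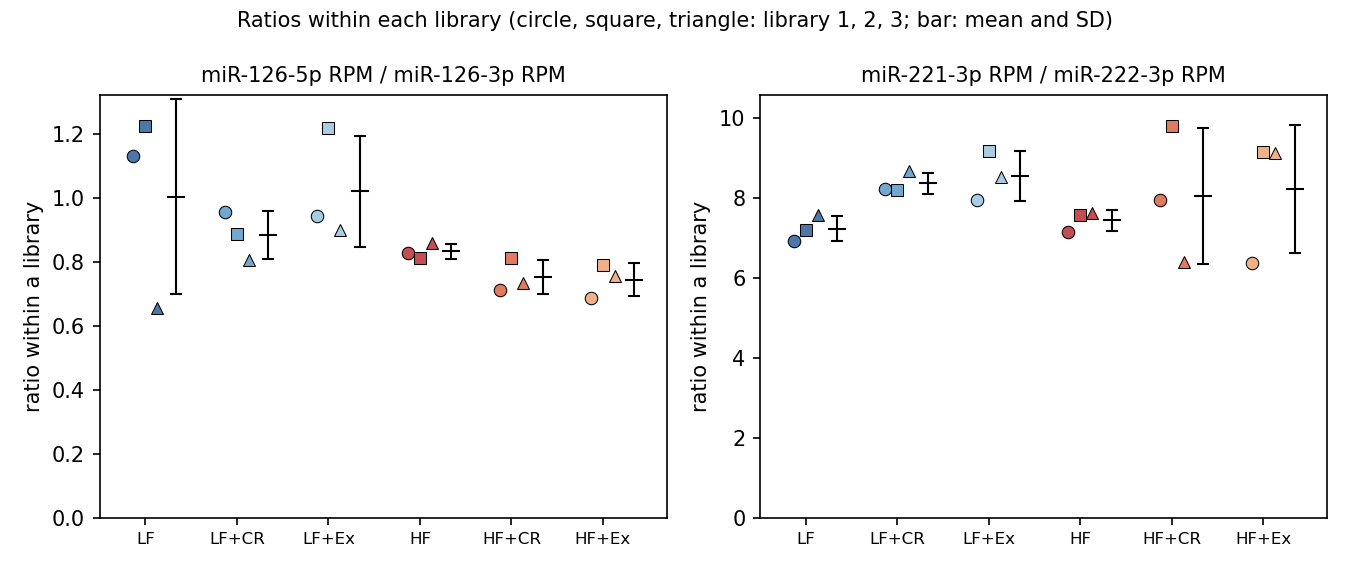
Ratio of RPM within each library (vertical axes from 0) for the arms of miR-126 (left) and for miR-221-3p over miR-222-3p (right), by group, with group means and SD. On the left the 9 HF-diet libraries sit between 0.688 and 0.860 and the LF-diet libraries between 0.658 and 1.22. On the right all LF+CR and LF+Ex points lie above the same LF points, a separation that was not set against other miRNA pairs.

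Across libraries miR-221-3p and miR-222-3p formed a tight pair, while the arms of miR-126 did not pair. Over the 18 libraries, Pearson's r of log2(RPM + 1) was 0.90 between miR-221-3p and miR-222-3p, and each was the closest of the 350 other tested miRNAs to the other. Between the arms of miR-126 r was 0.48, which put miR-126-5p at place 108 among the miRNAs most like miR-126-3p, and miR-126-3p at place 24 among those most like miR-126-5p. miR-126-3p had r of 0.63 with miR-221-3p (place 45) and 0.49 with miR-222-3p (place 103), both closer to it than miR-126-5p. By contrast, miR-126-5p had r of 0.04 with miR-221-3p and 0.03 with miR-222-3p. These values describe libraries that share groups, depth and scaling, and carry no test.

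**Figure D4:**
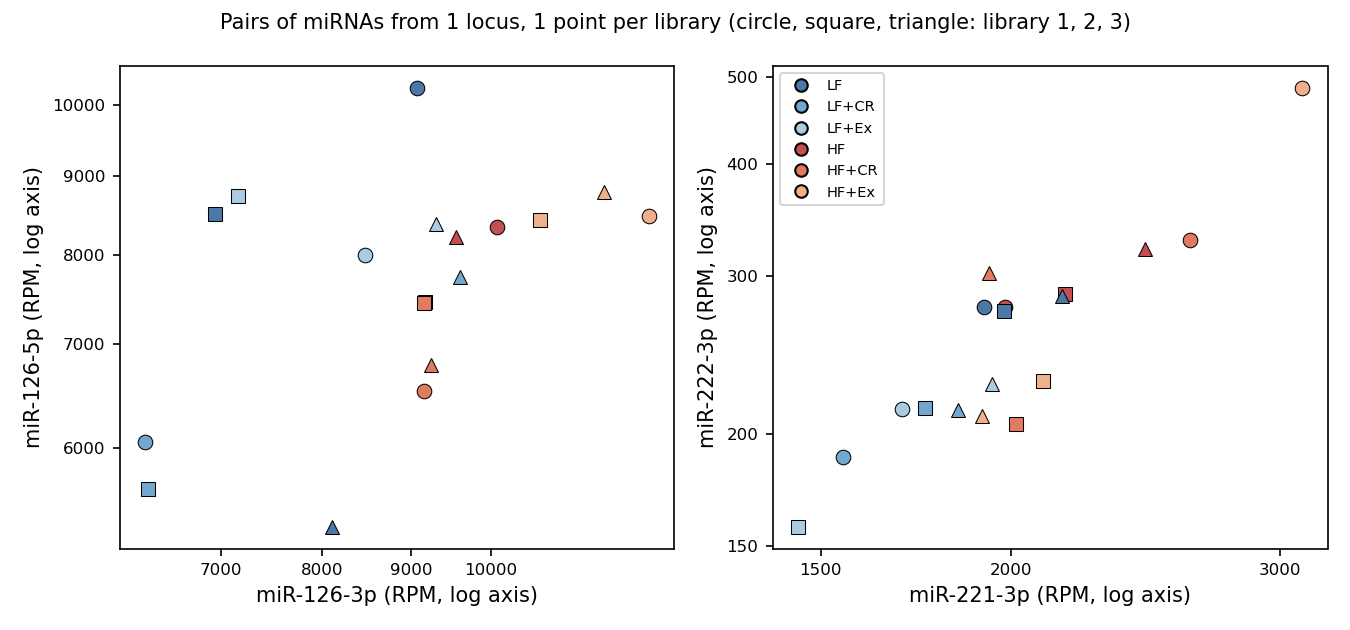
Each point is 1 library, coloured by group, with RPM on log axes: miR-126-5p against miR-126-3p (left) and miR-222-3p against miR-221-3p (right). The right-hand points lie near a line (r of 0.90) that ends at HF+Ex 1, and the left-hand points scatter (r of 0.48), with LF 1 and LF 3 at its top and bottom.

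The closest other miRNAs were named as the 3 with the highest r. For miR-126-3p they were miR-351-5p (0.86), miR-335-5p (0.85) and miR-425-3p (0.83). For miR-126-5p they were let-7a-1-3p and let-7c-2-3p, whose listed values are identical (0.77), and miR-26b-5p (0.71). For miR-221-3p miR-744-5p (0.87) and miR-425-3p (0.80) followed miR-222-3p, and for miR-222-3p miR-151-3p (0.85, mean 120 RPM) and miR-744-5p (0.82) followed miR-221-3p. The lists of the arms of miR-126 had no miRNA in common, whereas miR-744-5p stood in those of both miR-221-3p and miR-222-3p. Across the loci, miR-425-3p stood in those of both miR-126-3p and miR-221-3p.

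A list of 29 other miRNAs linked to endothelium and blood vessel growth sets the members in their wider family, and 28 of them were tested. In the HF diet average 9 were called higher and 3 lower, beside 65 of 351 miRNAs. miR-132-3p, which favours endothelial growth, entered the test through the HF diet alone, with 4 HF-diet and 0 LF-diet libraries at 5 RPM or above and ranges of 2.52 to 9.76 and 1.10 to 3.01 RPM. Its value of 0.99 (adjusted p = 0.0199) is therefore given as a description. Of the other 27, 8 were called higher and 3 lower, and their median of 0.32 stood beside 0.19 for all miRNAs. The largest called among them were miR-210-3p, known for its induction by hypoxia (0.77, adjusted p = 0.00717), and miR-503-5p, a cell cycle repressor (0.59, adjusted p = 0.00963). Also called higher were miR-151-5p (0.50), miR-125b-5p (0.40), miR-10a-5p (0.39), miR-27b-3p (0.32), miR-99a-5p (0.32) and miR-23b-3p (0.31). The lowest value was that of miR-10b-5p (-1.06), which was not called (adjusted p = 0.0738). Called lower were miR-101a-3p (-0.43, adjusted p = 0.0209), miR-19b-3p of the miR-17-92 cluster (-0.34, adjusted p = 0.0132) and miR-130a-3p, a repressor of anti-angiogenic homeobox genes (-0.31, adjusted p = 0.0487). The split of the calls over all miRNAs in this average was 56 higher and 9 lower, and 26 and 23 after rescaling.

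Where HF+Ex was compared with LF+Ex, 3 of the 28 were called higher and 4 lower, beside 29 of 351 miRNAs (8.26%), whose split of 21 higher and 8 lower became 8 and 14 after rescaling. miR-10a-5p of a Hox cluster (0.73), miR-100-5p (0.88) and miR-125b-5p (0.70) were called higher. The members of the miR-17-92 cluster miR-17-5p (-0.84), miR-20a-5p (-0.78) and miR-19b-3p (-0.66) were called lower with miR-130a-3p (-0.84). miR-210-3p at 0.76 and miR-132-3p at 0.91 were not called. In HF+CR against LF+CR 6 were called higher, miR-151-5p (0.89), miR-92a-3p (0.74), miR-27b-3p (0.68), miR-20a-5p (0.66), miR-17-5p (0.58) and miR-99a-5p (0.49), and 1 lower, miR-101a-3p (-0.89), beside 37 of 351 miRNAs (10.5%), whose split of 32 higher and 5 lower became 6 and 19 after rescaling. There miR-132-3p (0.97), miR-322-5p (-0.46) and miR-10b-5p (-1.07) were not called. The cluster members miR-17-5p and miR-20a-5p thus stood on opposite sides of 0 in these comparisons, which is a description with no test of the difference.

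The test for any difference among the 6 groups called 9 of the 28, beside 70 of 351 miRNAs (19.9%), led by miR-17-5p, miR-27b-3p and miR-20a-5p. The Ex effect differed between diets for 1, miR-17-5p (HF minus LF -1.12, adjusted p = 0.0286), and the CR effect for 0 in limma and voom, with 5 at an unadjusted p under 0.05. Each of these tests called 3 of 351 miRNAs (0.855%). In HF+Ex against HF limma called 2 lower, miR-17-5p (-0.90, adjusted p = 0.0235) and miR-20a-5p (-0.85, adjusted p = 0.0483), beside 3 of 351 miRNAs (0.855%), and voom called 1 of the list. In LF+CR against LF 1 was called lower, miR-27b-3p (-0.64, adjusted p = 0.0172), beside 22 of 351 miRNAs (6.27%). In HF against LF limma and voom called 0, with 6 of 28 at an unadjusted p under 0.05, and values ran from miR-10b-5p (-2.16), miR-218-5p (-0.78) and miR-92a-3p (-0.57) to miR-503-5p (0.86), miR-210-3p (0.91) and miR-132-3p (1.10). In LF+Ex against LF both called 0, with 4 at an unadjusted p under 0.05, and in HF+CR against HF both called 0, with 2. For the Ex average both called 0, with 2, and in the CR average 1 was called lower, beside 23 of 351 miRNAs (6.55%).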

How the data were processed

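Per the file headers, the authors deposited RPM values, in which reads are scaled by library size, with 758 mature miRNAs listed in each of 18 libraries. The submitters' processing notes name the build mm10. Not given in the sources used here are the aligner, counting tool, miRNA annotation and treatment of reads matching several miRNAs. Sample titles gave the groups and replicate numbers. Depth was recovered from the RPM steps: all values were whole multiples of 1 step within 0.001 reads, and the smallest listed was 2 reads. RPM is a share of a library, so abundant miRNAs that change shift the rest.

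miRNAs with at least 5 RPM in at least 3 libraries (351, with 407 not tested) were fitted on log2(RPM + 1) with limma 3.58.1 in R 4.3.3, with 18 libraries, 1 coefficient per group and an intensity trend. Folds are on that scale, which understates changes of low miRNAs. Ratios within libraries were tested by exact permutation in Python 3.11.15 with numpy 2.4.6, adjusted over 20 tests. The Wilson intervals came from scipy 1.17.1. The limma step was tested on simulated data. Alternatives were a pseudocount of 5, filters of 0 and 50 RPM, median-of-ratios scaling, compared groups only, a replicate block, no trend, voom, and leaving out libraries singly and in sets. Gene positions are from GENCODE on GRCm38.

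Members and lists were chosen with earlier results of these data known. Named were the 4 members, their minor arms, the 3 most alike miRNAs, and members of the angiogenesis-linked list that were called or lowest and highest.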

Additional observations from a re-analysis of the deposited data

How the results depend on the processing

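The number of members called did not change under any alternative for HF against LF, LF+CR against LF, LF+Ex against LF, HF+CR against HF, HF+Ex against HF, the Ex average and both differences between diets, at 0 in each. For the HF diet average (1 called) it was 2 with a filter of 50 RPM, where miR-221-3p joined, 0 with median-of-ratios scaling, 0 without LF+CR 1 and HF+CR 1, and 0 without the 3 shallowest libraries. For HF+Ex against LF+Ex it was 1 with the 50 RPM filter, 1 with the replicate block and 1 without LF 1 and HF+CR 3. For any difference it was 1 under those alternatives and 1 with voom weights, in each of them miR-126-3p. Without the 3 shallowest libraries the results for any difference and the CR average changed through miR-222-3p, not miR-126-3p. HF+CR 2 was then alone in its group. Leaving out single libraries gave 1 to 2 for the HF diet average and 0 to 1 for HF+Ex against LF+Ex, HF+CR against LF+CR, the CR average and any difference. miR-126-3p in the diet average ran from 0.32 to 0.43 over those omissions (adjusted p = 0.00453 to 0.0381).

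Rescaling turned miR-126-5p to -0.012 in HF against LF, -0.23 in HF+CR against LF+CR, -0.19 in HF+Ex against LF+Ex, -0.14 in the diet average and 0.062 in LF+CR against LF. It turned miR-126-3p to 0.20 in LF+CR against LF and 0.10 in the CR average, and miR-221-3p to 0.10, 0.071, 0.042 and 0.0063 in LF+CR against LF, the CR average, HF+CR against HF and the Ex average. Without LF 2 and HF+CR 2, miR-126-3p was -0.054 in LF+Ex against LF, and in HF+CR against HF miR-221-3p was 0.039 and miR-222-3p 0.10. Without LF 1 and HF+CR 3, miR-221-3p was 0.068 in HF+CR against HF, and without the 3 shallowest it was -0.13 in HF+Ex against HF. Omitting single libraries spanned, for miR-126-3p, -0.054 to 0.15 in LF+Ex against LF. For miR-126-5p it spanned -0.22 to 0.25 in HF against LF, -0.16 to 0.31 in LF+Ex against LF, -0.031 to 0.21 in the Ex average and -0.028 to 0.13 in the diet average. For miR-221-3p and miR-222-3p it spanned -0.15 to 0.068 and -0.24 to 0.10 in HF+CR against HF, and -0.13 to 0.22 and -0.42 to 0.18 in HF+Ex against HF.

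The arm ratio of miR-126 in the diet average ran from -0.39 (without LF 3, passing) to -0.24 over single omissions. Its other values that crossed 0 were -0.19 to 0.032 in the Ex average, -0.42 to 0.031 in LF+CR against LF and -0.22 to 0.23 in LF+Ex against LF. The Ex average was 0.0040 without LF 1 and HF+CR 3. For miR-221-3p over miR-222-3p, HF+CR against LF+CR was 0.078 and the diet average 0.0045 without LF 1 and HF+CR 3, and without the 3 shallowest HF+CR against LF+CR was 0.23, HF+Ex against LF+Ex 0.10 and the diet average 0.12. Single omissions spanned -0.061 to 0.25 in HF+CR against HF, -0.23 to 0.078 in HF+CR against LF+CR, -0.16 to 0.10 in HF+Ex against LF+Ex and -0.088 to 0.021 in the diet average. The cause of these changes was not tested.

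Same-numbered libraries of different groups did not deviate together on average (mean r of 0.03 over 45 pairs, against -0.01 for 90 other pairs). Single pairs ran from -0.42 to 0.61, with 14 over 0.1. The numbers were not taken to pair the libraries, and the block changed no other member's call. Rescaling shifted the median miRNA by -0.20 in the diet average, by 0.33 and -0.33 in LF+CR against LF and HF+CR against LF+CR, and by -0.22 in HF+Ex against LF+Ex. It moved the calls from 32 higher and 5 lower to 6 and 19 in HF+CR against LF+CR, from 21 and 8 to 8 and 14 in HF+Ex against LF+Ex, and from 2 and 20 to 10 and 7 in LF+CR against LF. Over all alternatives the miRNAs called ranged from 6 to 98 in the diet average. Leaving out single libraries took the background count from 0 (without HF 2) to 77 (without HF+CR 3) in the CR average, from 3 (without LF+CR 1 or LF+CR 2) to 52 (without HF+CR 2) in HF+CR against LF+CR, from 2 (without HF+Ex 3) to 59 (without HF+CR 3) in HF+Ex against LF+Ex, from 5 to 40 in LF+CR against LF, from 0 to 25 in HF+CR against HF and from 15 to 117 for any difference. The edgeR and DESeq2 alternatives were not run, and voom on the recovered reads, chosen after seeing the data, took their place. The fit of compared groups only could not be made for any difference. With 3 libraries a group, exact tests within a regimen cannot pass.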
